A study of Mus musculus with 13 samples.

Results

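Cytochrome c oxidase (complex IV) is the enzyme of the inner mitochondrial membrane that passes electrons from cytochrome c to oxygen. The 10 genes described here encode its nuclear subunits that exist as paired tissue isoforms, together with their nearest companions. They are 4 pairs (*Cox4i2* and *Cox4i1*, *Cox6a2* and *Cox6a1*, *Cox7a1* and *Cox7a2*, *Cox8b* and *Cox8a*), the related *Cox7a2l* and the unpaired *Cox5a*. The genes were taken by name, out of 36109 mouse genes in the processed values, and all 10 passed the filter on low counts in ECs, in heart tissue and in the fit of both. In ECs *Cox6a2* did so through wildtype samples alone. RNA was measured in 13 libraries from mice with deletion of *Hmox2* (Hmox2-/-) and wildtype littermates (Hmox2+/+), all kept in room air. Aortic endothelial cells (ECs) gave 3 libraries of Hmox2+/+ and 3 of Hmox2-/- mice, and hearts taken whole gave 4 and 3. Single libraries are named by tissue, WT (Hmox2+/+) or KO (Hmox2-/-) and the number in the labels. HMOX2 is a heme oxygenase, which cleaves heme and releases carbon monoxide. The deletion was present in the whole animal, the sequenced mice were young, and their sex is not given in the sources used here. The submitters describe EC and heart samples as matched pairs, but the labels do not show which libraries share a mouse, so tests between tissues treat the libraries as independent. EC RNA was obtained by flushing the aortic lumen with TRI Reagent, and heart RNA came from powdered frozen whole heart with another kit. Tissue and RNA isolation therefore cannot be told apart in the comparisons between them.

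The catalytic core of complex IV is made of subunits encoded in mitochondrial DNA, and nuclear subunits surround it. For some of the nuclear subunits mammals have a form found in most tissues and a form restricted to a few. COX6A2, COX7A1 and COX8B are the forms of heart and skeletal muscle, and *Cox7a1* and *Cox8b* are also known from brown adipose tissue. COX4I2 is known from lung and from pericytes, the cells that wrap small vessels, and its gene is known to respond to oxygen. COX7A2L takes part in joining complex IV to complex III in supercomplexes, and COX5A is a subunit next to the catalytic core with no paired isoform.

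In GRCm39, the pair of subunit 4 lies on chromosome 2 (*Cox4i2*, 152595625 to 152606959, plus strand) and chromosome 8 (*Cox4i1*, 121391505 to 121400950, plus strand). *Cox6a2* lies on chromosome 7 (127804607 to 127805559, minus strand) and *Cox6a1* on chromosome 5 (115483701 to 115487050, minus strand). *Cox7a1* also lies on chromosome 7 (29883569 to 29885503, plus strand), and *Cox7a2* on chromosome 9 (79653049 to 79667162, minus strand). The third restricted muscle isoform on chromosome 7 is *Cox8b* (140477069 to 140480359, minus strand), and *Cox8a* lies on chromosome 19 (7192515 to 7194997, minus strand). *Cox5a* lies on chromosome 9 (57428456 to 57440678, plus strand) and *Cox7a2l* on chromosome 17 (83765970 to 83824759, minus strand). All 10 are annotated as protein coding.

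Whether reads of one isoform could be counted for its partner was examined on the transcript sequences of GENCODE M39. The coding sequences of *Cox4i2* and *Cox4i1* were 62.9% identical, those of *Cox7a1* and *Cox7a2* 59.9%, those of *Cox6a2* and *Cox6a1* 56.8% and those of *Cox8b* and *Cox8a* 53.4%. No pair shared a word of 31 bases, the word length of the index. The longest stretch that each pair shared, all within coding sequence, is printed here to show how short it was. It was 14 bases for *Cox4i2* and *Cox4i1*, 12 for *Cox6a2* and *Cox6a1* and for *Cox7a1* and *Cox7a2*, and 10 for *Cox8b* and *Cox8a*.
Cox4i2 and Cox4i1: GAATGGAAGACAGT
Cox6a2 and Cox6a1: ACCAAGCCCTTC
Cox7a1 and Cox7a2: TGAAAGGCGGGG
Cox8b and Cox8a: TGGAGAGCTA

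Other genes share more with the members. The pseudogene *Gm6969* has 78.2% of its words in *Cox7a2l* and held 465 counts per library on average, so the level of *Cox7a2l* is uncertain to that extent. As gene spans, *Cox4i1* overlaps *Emc8*, *Cox7a2l* overlaps *Eml4*, *Cox8b* overlaps *Psmd13* and *Cox6a2* overlaps *Itgad* on the opposite strand, and counting did not use the strand. In transcript words *Emc8* held 9.48% of those of *Cox4i1*, and *Itgad* 6.15% of those of *Cox6a2*. *Cox8b* shared 0 words with other genes, and all 244 shared words of *Cox7a2l* were found in *Gm6969*.

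Promoter sequence of RefSeq (250 bases before to 50 bases after the gene start) was given for 7 of the 10 genes. Those of both complete pairs are printed because their members moved together in heart tissue while their shares differed between tissues. Capitals mark matches, on either strand, to the letters searched. These were the E-box CANNTG, the SP1 motif GGGCGG, the NRF1 motif, the ETS motif CCGGAAG, the box of letters CCAAT, the TATA box as TATAAA, the estrogen-related receptor motif AAGGTCA, and the MEF2 motif. No matches overlapped. Coordinates are of GRCm38.p6.
Cox7a1, chr7:30183921-30184220, plus strand: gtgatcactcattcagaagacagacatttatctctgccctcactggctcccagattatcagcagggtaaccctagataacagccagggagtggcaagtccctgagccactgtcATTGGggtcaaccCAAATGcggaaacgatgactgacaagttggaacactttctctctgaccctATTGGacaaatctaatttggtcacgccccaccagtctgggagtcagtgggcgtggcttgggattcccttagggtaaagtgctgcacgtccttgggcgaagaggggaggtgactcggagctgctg
Cox7a2, chr9:79759804-79760103, minus strand: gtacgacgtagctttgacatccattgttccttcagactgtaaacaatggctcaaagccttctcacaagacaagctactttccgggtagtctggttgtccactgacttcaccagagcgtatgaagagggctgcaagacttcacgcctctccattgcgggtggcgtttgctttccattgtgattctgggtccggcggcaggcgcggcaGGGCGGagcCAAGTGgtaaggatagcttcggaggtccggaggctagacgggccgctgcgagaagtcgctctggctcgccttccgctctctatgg
Cox8b, chr7:140900397-140900696, minus strand: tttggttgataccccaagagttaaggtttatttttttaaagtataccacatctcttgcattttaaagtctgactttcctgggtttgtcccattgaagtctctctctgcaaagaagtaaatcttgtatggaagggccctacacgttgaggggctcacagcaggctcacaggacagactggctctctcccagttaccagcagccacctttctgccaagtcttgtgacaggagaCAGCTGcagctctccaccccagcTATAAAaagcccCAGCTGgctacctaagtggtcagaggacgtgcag
Cox8a, chr19:7217567-7217866, minus strand: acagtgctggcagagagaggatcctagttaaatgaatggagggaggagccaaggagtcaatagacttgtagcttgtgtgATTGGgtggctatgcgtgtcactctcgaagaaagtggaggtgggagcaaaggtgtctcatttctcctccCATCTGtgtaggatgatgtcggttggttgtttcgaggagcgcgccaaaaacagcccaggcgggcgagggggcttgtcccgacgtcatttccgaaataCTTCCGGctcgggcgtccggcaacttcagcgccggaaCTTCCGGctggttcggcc

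The *Cox8b* window held 2 CG dinucleotides and the *Cox7a1* window 7, against 20 for *Cox7a2*, 19 each for *Cox8a* and *Cox7a2l*, 32 for *Cox6a1* and 35 for *Cox5a*. The median of all 32851 promoters was 7. *Cox8b* was the single one of the 7 with TATAAA, which 13.6% of all promoters held, and both of its E-box matches read CAGCTG. E-box letters were found in 72.3% of all promoters. The ETS letters were found in *Cox8a* and *Cox6a1* and in 8.86% of all promoters, and the NRF1 letters in *Cox6a1* and in 4.60%. GGGCGG was found in *Cox5a*, *Cox6a1*, *Cox7a2* and *Cox7a2l* and in 35.7% of all promoters, and CCAAT in *Cox6a1*, *Cox7a1* and *Cox8a* and in 37.4%. Neither MEF2 (1.86% of all promoters) nor AAGGTCA (4.72%) was found in any of the 7 windows.

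Total estimated counts were 26067147 to 31138642 in the EC libraries. They were 29815090 to 31619776 in heart libraries other than heart WT 1, which had 7268626. *Hmox2* was 63.9 to 76.2 CPM in ECs and 37.3 to 42.5 CPM in hearts of Hmox2+/+ mice, and 12.6 to 14.8 and 7.53 to 8.90 CPM in those of Hmox2-/- mice, so each library matched its label. The Y-linked *Ddx3y* was 37.0 to 86.5 CPM in 11 libraries but 1.03 CPM in EC KO 2 and 0.920 CPM in EC KO 3, which stood apart from EC KO 1 in this. Every Hmox2-/- heart held it (37.0 to 50.9 CPM), so by *Ddx3y* EC KO 2 and EC KO 3 matched no sequenced heart of their genotype. Every Hmox2+/+ EC library also held it (61.7 to 66.8 CPM), so in ECs this difference cannot be fully told apart from genotype. Mitochondrially encoded genes held 37.6% to 44.3% of the counts in Hmox2+/+ hearts, 22.5% to 27.2% in Hmox2-/- hearts, 19.4% to 30.7% in Hmox2+/+ ECs and 24.1% to 30.9% in Hmox2-/- ECs. The EC libraries held *Pecam1*, an endothelial adhesion molecule, at 364 to 1007 TPM, but they were not of endothelial RNA alone. *Ucp1*, the uncoupling protein of brown fat, was 1022 to 1909 TPM in them and at most 0.0853 TPM in the hearts. *Adipoq*, which encodes the adipocyte hormone adiponectin, was 562 to 1042 TPM in ECs and at most 0.760 TPM in hearts.

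The first question was how the isoforms of each pair divide between heart and aortic EC libraries of Hmox2+/+ mice. A pair is described by the share of its summed TPM held by the restricted isoform. TPM is corrected for transcript length and scaled to a fixed total per library, so it can be compared between genes as far as the lengths hold. The main *Cox8b* transcript was 360 bases in the deposited values and 2149 in GENCODE M39, and that of *Cox7a2* was 659 and 5250. Levels and shares in TPM rest on the deposited lengths. A nuclear gene's TPM also moves with the share held by mitochondrial transcripts, so levels between groups are compared in CPM further on. The log2 ratio of both TPM values (0.1 added to each) was tested with an exact permutation test, two-sided, which here cannot go below p = 0.0286. A ratio within a library does not depend on the scaling between libraries. There were 20 such tests (4 pairs by 5 comparisons), and their p-values were not adjusted.

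*Cox6a2* changed places with *Cox6a1* between the tissues. It held 94.9%, 95.3%, 95.4% and 96.1% of the pair in the 4 Hmox2+/+ hearts. In the 3 Hmox2+/+ EC libraries it held 0.333%, 0.682% and 1.20%. The groups were at opposite ends of the scale and did not overlap. The log2 ratio was 4.38 in hearts and -7.24 in ECs, a difference of 11.62 (p = 0.0286, exact permutation test, n = 4 and 3).

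The pairs of subunits 7A and 8 behaved otherwise, since by TPM the muscle isoform was the larger part in ECs too. By estimated counts, which are not corrected for length, *Cox7a1* was below *Cox7a2* in each EC library (8229 against 9147 in EC WT 1). *Cox8b* was below *Cox8a* in EC WT 2 (17701 against 18137) and EC KO 1 (9496 against 10232), and above it in the other EC libraries. *Cox7a1* held 77.8%, 77.9%, 79.2% and 80.1% of its pair in Hmox2+/+ hearts and 58.9%, 63.0% and 66.3% in Hmox2+/+ ECs. *Cox8b* held 89.1%, 89.2%, 89.9% and 90.7% in hearts and 66.7%, 68.2% and 73.6% in ECs. Neither pair overlapped between tissues. The log2 ratio was higher in hearts by 1.14 for *Cox7a1* over *Cox7a2* and by 1.93 for *Cox8b* over *Cox8a* (each p = 0.0286, exact permutation test, n = 4 and 3).

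*Cox4i2* was a trace of its pair everywhere. It held 0.393% to 0.467% in Hmox2+/+ hearts and 0.234%, 0.277% and 0.380% in Hmox2+/+ ECs, and the groups did not overlap. Its log2 ratio to *Cox4i1* was 0.56 higher in hearts (p = 0.0286, exact permutation test, n = 4 and 3). The counts behind *Cox4i2* were low, 28 to 228 per library in hearts, 92 to 120 in Hmox2+/+ ECs and 32 to 41 in Hmox2-/- ECs.

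**Figure D1:**
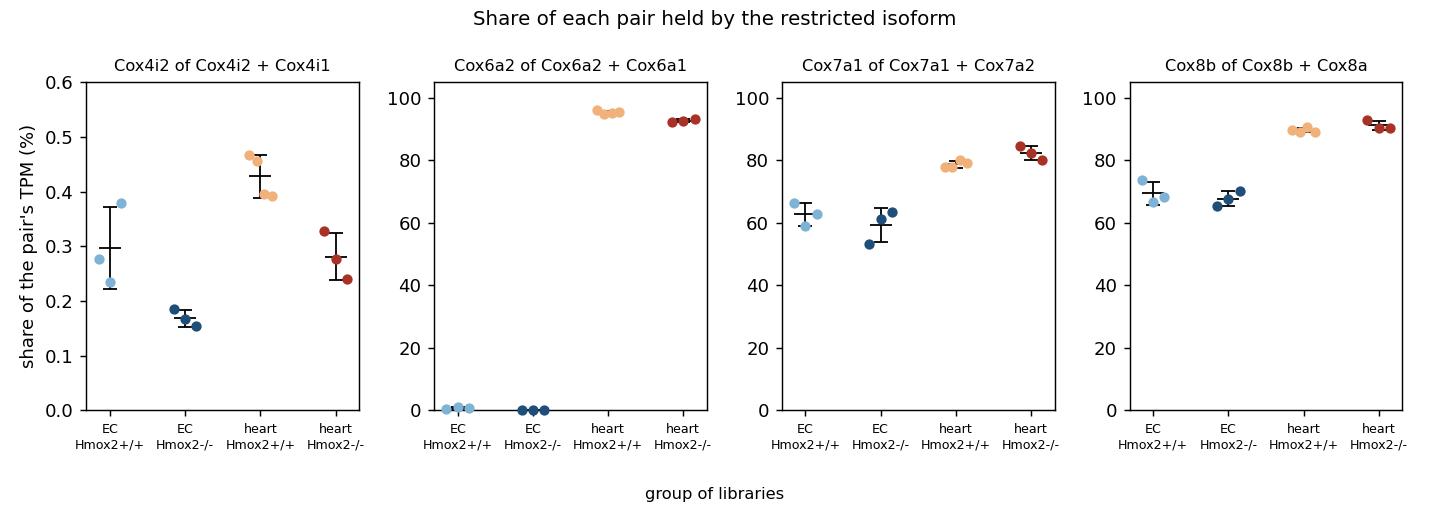
Share of the summed TPM of each isoform pair held by the restricted isoform (y axis, percent) in each library (points), by group (x axis). Black marks show the mean and SD, and the y axis of the *Cox4i2* panel ends at 0.6%. *Cox6a2* holds 92.4% to 96.1% of its pair in every heart and at most 1.20% in every EC library, while *Cox7a1* and *Cox8b* hold more than *Cox7a2* and *Cox8a* in every library.

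The same division stood in Hmox2-/- mice. *Cox6a2* held 92.4%, 92.6% and 93.2% of its pair in hearts and 0.0525%, 0.0315% and 0% in ECs. *Cox7a1* held 80.1%, 82.4% and 84.6% in hearts and 53.1%, 61.4% and 63.5% in ECs. *Cox8b* held 90.3%, 90.3% and 92.9% in hearts and 65.5%, 67.7% and 70.1% in ECs. No pair overlapped between tissues, and the log2 ratios were higher in hearts by 15.44 (*Cox6a2*), 1.68 (*Cox7a1*), 2.31 (*Cox8b*) and 0.70 (*Cox4i2*). With 3 libraries against 3 each of these exact permutation tests gave p = 0.1, the smallest that the design allows. The size of 15.44 depends on the 0.1 TPM added, since *Cox6a2* was at most 0.707 TPM in Hmox2-/- ECs.

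By TPM, *Cox4i1* (1267 to 1690 TPM), *Cox6a2* (1125 to 1544 TPM) and *Cox7a1* (1045 to 1358 TPM) led the 10 genes in Hmox2+/+ hearts. Neighbours among these 3 overlapped, as did *Cox7a1* and *Cox8b* (888 to 1109 TPM). *Cox5a* followed at 643 to 821 TPM, then *Cox7a2* at 274 to 387 TPM, and below them the ranges of *Cox7a2l* (119 to 166 TPM) and *Cox8a* (94.8 to 135 TPM) overlapped. *Cox6a1* was 55.9 to 83.6 TPM and *Cox4i2* 5.03 to 7.75 TPM, each apart from its neighbours.

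In Hmox2+/+ ECs *Cox8b*, a muscle isoform, had the highest TPM of the 10, at 2839, 3586 and 3718 TPM. *Cox4i1* (2088 to 2720 TPM) and *Cox6a1* (1882 to 3034 TPM) came next and overlapped. *Cox8a* (1286 to 1859 TPM) and *Cox7a1* (1000, 1167 and 1224 TPM) followed. *Cox6a2* was near the bottom at 6.64, 12.9 and 37.0 TPM, above *Cox4i2* by its mean but overlapping it (6.38 to 7.96 TPM). By estimated counts *Cox8b* (14130 to 20099) lay below *Cox4i1* (32453 to 40608) and *Cox6a1* (20287 to 31290) in these libraries, so its rank rests on transcript length.

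**Figure D2:**
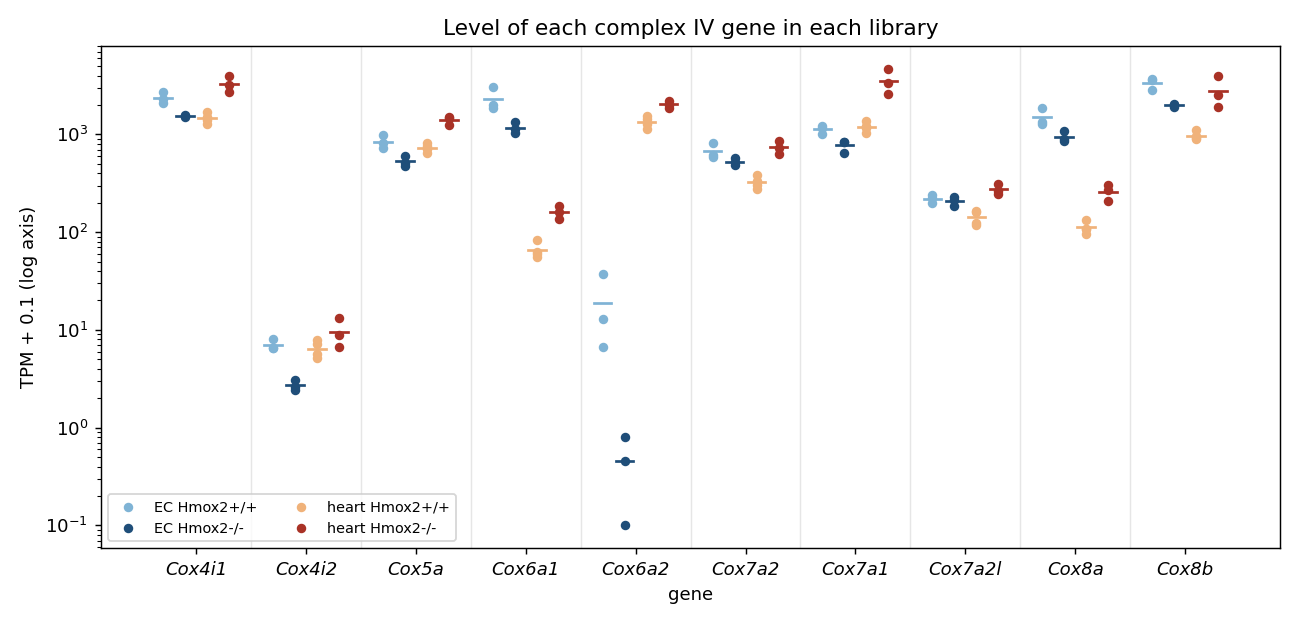
TPM plus 0.1 (y axis, log scale) of each of the 10 genes (x axis) in each of the 13 libraries (points), with the mean of each group as a line. *Cox6a2* is at 1125 to 2221 TPM in hearts and 0 to 37.0 TPM in ECs, and *Cox6a1* and *Cox8a* are lower in every heart than in every EC library.

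Levels between tissues were then compared gene by gene with edgeR's quasi-likelihood test over all 13 libraries (adjusted p by Benjamini-Hochberg over 15938 genes, called at 0.05 or less). Of the 10 genes 7 were called between Hmox2+/+ hearts and ECs, where 65.8% of all genes tested were called. *Cox4i2*, *Cox5a*, *Cox6a2* and *Cox7a1* were higher in hearts, as were 32.1% of all genes tested, and *Cox6a1*, *Cox8a* and *Cox8b* were lower, as were 33.7%. Libraries of the groups did not overlap for these 7, nor for 65% of all genes tested. The size ran from 7.18 ± 0.51 (log2, SE; adjusted p = 1.88e-08) for *Cox6a2* down to -4.18 ± 0.20 for *Cox6a1* (adjusted p = 2.29e-10). Scaling matters for levels between these tissues. Upper-quartile scaling moved the median log2 difference of all genes from -0.05 to -0.19 for Hmox2+/+ mice and from -0.11 to -0.35 for Hmox2-/- mice, and the direction of all 10 was kept under it.

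*Cox8b* stood apart from the other muscle isoforms here. In CPM scaled over both tissues it was 234, 241, 254 and 254 in Hmox2+/+ hearts and 332, 451 and 561 in Hmox2+/+ ECs. All EC values lay above all heart values, and the log2 difference was -0.87 ± 0.23 (SE, adjusted p = 0.00380). It was -0.17 (adjusted p = 0.430) with an offset for transcript length and GC content, so that call depended on the offset. *Cox7a1*, by contrast, was 329 to 405 CPM in hearts and 139 to 230 CPM in ECs, 1.02 ± 0.23 higher (log2, adjusted p = 0.00151), and 1.70 higher with the offset. *Cox7a2* was -0.11 without the offset (adjusted p = 0.574) and 0.42 with it (adjusted p = 0.0199). *Cox4i1* and *Cox7a2l*, not called without the offset, were 0.90 and 0.72 higher in hearts with it (adjusted p = 0.000170 and 0.00141). The count with the offset was thus 9, 7 higher and 2 lower, where 66.5% of all genes tested were called.

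In Hmox2-/- mice all 10 genes were called between tissues, 8 higher in hearts and 2 lower (*Cox6a1* and *Cox8a*), where 70.4% of all genes tested were called (33.7% higher and 36.7% lower). None overlapped between tissues, as for 74.3% of all genes tested. *Cox8b* was among the 8, at 372, 519 and 851 CPM in hearts and 244, 250 and 275 CPM in ECs. Its log2 difference was 1.18 ± 0.25 (SE, adjusted p = 0.000671), opposite in sign to that in Hmox2+/+ mice, and 0.18 with the offset (adjusted p = 0.405).

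The muscle isoforms of the EC libraries were set beside markers of other cell types. *Cox6a2* moved with cardiomyocyte markers. The summed TPM of 12 such markers (among them *Myl2*, a ventricular myosin light chain, and *Tnnt2*, cardiac troponin T) was 124 in EC WT 1, 731 in EC WT 2 and 276 in EC WT 3, and 10.7, 11.3 and 12.7 in the Hmox2-/- ECs. *Cox6a2* was 6.64, 37.0 and 12.9 TPM in the same Hmox2+/+ libraries and 0.707, 0.354 and 0 TPM in the Hmox2-/- ones. Per summed marker TPM, *Cox6a2* was 5.36%, 5.05% and 4.68% in Hmox2+/+ ECs, where hearts ranged from 3.20% to 3.51%. In the Hmox2-/- ECs the values were 6.58%, 3.13% and 0%, from 9, 5 and 0 counts.

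Fast skeletal muscle markers differed the same way, with a summed TPM of 33.6 to 150 in Hmox2+/+ ECs and 2.69 to 6.56 in Hmox2-/- ECs. EC WT 2 was the highest of the ECs in cardiomyocyte markers and in *Cox6a2*, and the lowest Hmox2+/+ EC library in skeletal muscle markers. Of the 12 cardiomyocyte markers 11 reached 1 TPM in some Hmox2+/+ EC library and 7 in some Hmox2-/- one. The part of these markers' RNA in the *Cox6a2* result was not tested. In bulk RNA, fewer cells of a type and less RNA per cell cannot be told apart.

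*Cox7a1* and *Cox8b* did not keep to the cardiomyocyte markers. Per summed cardiomyocyte marker TPM, *Cox7a1* was 2.82% to 3.51% in wildtype hearts but 160% to 989% in wildtype ECs and 6003% to 7409% in Hmox2-/- ECs. Brown adipocyte markers (10 genes, including *Ucp1* and *Cidea*, a lipid droplet protein) summed to 2583 to 3473 TPM in Hmox2+/+ ECs, 1994 to 2877 TPM in Hmox2-/- ECs and 246 to 393 TPM in hearts. Per summed brown adipocyte marker TPM, *Cox7a1* was 33.6% to 38.7% in wildtype ECs and 29.1% to 32.4% in Hmox2-/- ECs. *Cox8b* was 107% to 110% in the former and 66.5% to 104% in the latter. Of the 10 brown adipocyte markers, 5 reached 1 TPM in some heart, led by *Cpt1b*, a carnitine palmitoyltransferase also used by cardiac muscle, and *Ucp1* and *Otop1* were at 0 in all Hmox2-/- hearts. The part of brown adipocyte RNA in the EC levels of *Cox7a1* and *Cox8b* was not tested.

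**Figure D3:**
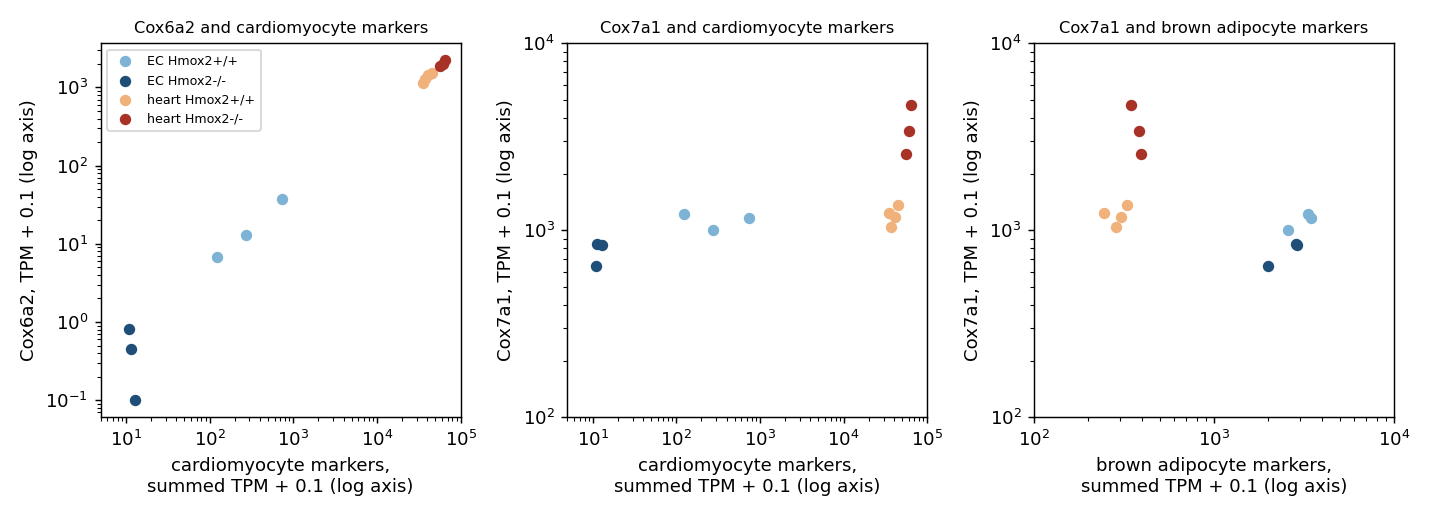
Left: *Cox6a2* (y axis, TPM plus 0.1) against summed cardiomyocyte marker TPM plus 0.1 (x axis) in the 13 libraries (points, coloured by group), both axes logarithmic. Middle and right: *Cox7a1* against cardiomyocyte and brown adipocyte markers. *Cox6a2* lies low wherever cardiomyocyte markers are low, while *Cox7a1* stays at 645 to 1224 TPM in ECs whose cardiomyocyte sums run from 10.7 to 731.

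*Cox4i2* was set beside pericyte markers (8 genes, led by *Rgs5*, a regulator of G protein signalling). Their summed TPM was 95.4 to 125 in Hmox2+/+ ECs, 70.2 to 101 in Hmox2-/- ECs and 145 to 205 in hearts. Per summed marker TPM, *Cox4i2* was 5.34% to 6.69% in wildtype ECs and 2.92% to 3.60% in Hmox2-/- ECs, with no overlap. In hearts it was 3.12% to 4.34% and 3.22% to 7.22%, with overlap between genotypes. Of the 8 pericyte markers 2 were called lower in Hmox2-/- ECs by edgeR, beside 8.06% of all genes tested. In Hmox2-/- hearts 4 were called lower and 1 higher, beside 16.2% and 17.2% of all genes tested. The part of pericyte RNA was not tested.

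The second question was how Hmox2-/- mice differed from Hmox2+/+ mice in heart tissue. The ubiquitous isoforms rose together with the restricted *Cox7a1* and *Cox8b*, while the restricted *Cox6a2* and *Cox4i2* were not called. Of the 10 genes 8 were called higher and 0 lower by edgeR's quasi-likelihood test within hearts, where 33.4% of 13816 genes tested were called (17.2% higher and 16.2% lower). The median log2 fold change of the 10 was 0.88, against -0.01 over all genes tested. Values are given as CPM, the count as a part of the library's TMM-scaled total, within hearts.

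*Cox7a1* and *Cox8b* had the highest fold changes without an offset for transcript length and GC content. *Cox7a1* was 257, 274, 287 and 319 CPM in Hmox2+/+ hearts and 454, 651 and 942 CPM in Hmox2-/- hearts. The groups did not overlap, as for 40.4% of all genes tested, and heart KO 1 was the highest library. The rise was 1.26 ± 0.19 (log2, SE; adjusted p = 0.00121). *Cox8b* followed the same order of libraries, at 183, 189.6, 197 and 200.4 CPM against 287, 407 and 671 CPM, without overlap. The rise of *Cox8b* was 1.24 ± 0.22 (log2, SE; adjusted p = 0.00223). These were the only members past a log2 fold change of 1, a size that 2.66% of all genes tested reached upward with a call. Without heart KO 1 they were 0.96 and 0.85.

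Their ubiquitous partners rose by less. *Cox7a2* was 148 to 180 CPM in Hmox2+/+ hearts and 247, 308 and 377 CPM in Hmox2-/- hearts (log2 0.89 ± 0.14 SE, adjusted p = 0.00121). *Cox8a* was 42.2 to 48.8 CPM and 62.8, 89.2 and 104 CPM (log2 0.92 ± 0.15 SE, adjusted p = 0.00150). Neither overlapped between genotypes.

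In the pair of subunit 6A the minor isoform of the heart moved. *Cox6a1* was 25.4 to 32.1 CPM in Hmox2+/+ hearts and 44.1, 56.8 and 67.0 CPM in Hmox2-/- hearts, a rise of 1.00 ± 0.14 (log2, SE; adjusted p = 0.000745). *Cox6a2*, the major one, was 677, 729, 757 and 790 CPM against 769, 906 and 1038 CPM. The groups of *Cox6a2* overlapped, and its difference of 0.29 ± 0.12 was not called (log2, SE; adjusted p = 0.0710). DESeq2 called it (log2 0.29, adjusted p = 0.0421), for a count of 9, as did edgeR without heart KO 3 (log2 0.40).

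In subunit 4, *Cox4i1* was 861 to 936 CPM in Hmox2+/+ hearts and 1269.6, 1611 and 2108 CPM in Hmox2-/- hearts, without overlap (log2 0.88 ± 0.15 SE, adjusted p = 0.00174). *Cox4i2* was 3.31 to 4.16 CPM and 2.96, 4.33 and 6.70 CPM, with overlap (log2 0.32 ± 0.25 SE, adjusted p = 0.346). *Cox5a* was 363 to 420 CPM and 482, 621 and 670 CPM, without overlap (log2 0.63 ± 0.12 SE, adjusted p = 0.00346). *Cox7a2l* was 128 to 162 CPM and 183, 214 and 257 CPM, also without overlap (log2 0.64 ± 0.13 SE, adjusted p = 0.00454). In all 10 genes heart KO 1 was the highest library of all hearts and heart KO 3 the lowest of its group.

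Other markers moved with genotype in hearts. All 5 erythroid markers were called higher in Hmox2-/- hearts (median log2 1.98), as were 4 of 7 macrophage markers and 4 of 12 cardiomyocyte markers, with 1 of the latter lower, beside 17.2% of all genes tested higher and 16.2% lower. Of 8 pericyte markers 4 were called lower and 1 higher, and of 8 smooth muscle markers 4 were higher and 1 lower. Endothelial markers (10) had 3 higher and 1 lower, and fibroblast markers (7) had 1 higher and 2 lower. Of 6 tested brown adipocyte markers 2 were lower. Adipocyte and fast skeletal muscle markers had 1 of 6 tested called in each direction. The part of these cells' RNA was not tested.

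Transcript length moved with these changes. The members are short in the deposited values, with mean listed transcript lengths of 360 bases (*Cox8b*) to 1020 bases (*Cox5a*). The offset used these lengths, although the *Cox8b* transcript is 2149 bases in GENCODE M39. Among all 2010 genes tested in hearts with a length under 1000 bases, 46.2% were called higher in Hmox2-/- mice and the median log2 fold change was 0.42, whereas of the 1103 genes of 4000 bases or more 2.81% were called higher and the median was -0.41. With a smooth offset for length and GC content the same 8 members were still called higher, where 26.9% of all genes tested were called, but by less. *Cox7a1* was then 0.48 ± 0.10 and *Cox8b* 0.33 ± 0.11 (log2, SE; adjusted p = 0.00439 and 0.0483), and neither passed a log2 fold change of 1. *Cox8b* then lay below *Cox6a1* (0.44), *Cox5a* (0.43) and *Cox7a2l* (0.34). The median of the 10 was 0.32. *Cox6a2* and *Cox4i2* turned to -0.21 and -0.15, not called in either fit.

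**Figure D4:**
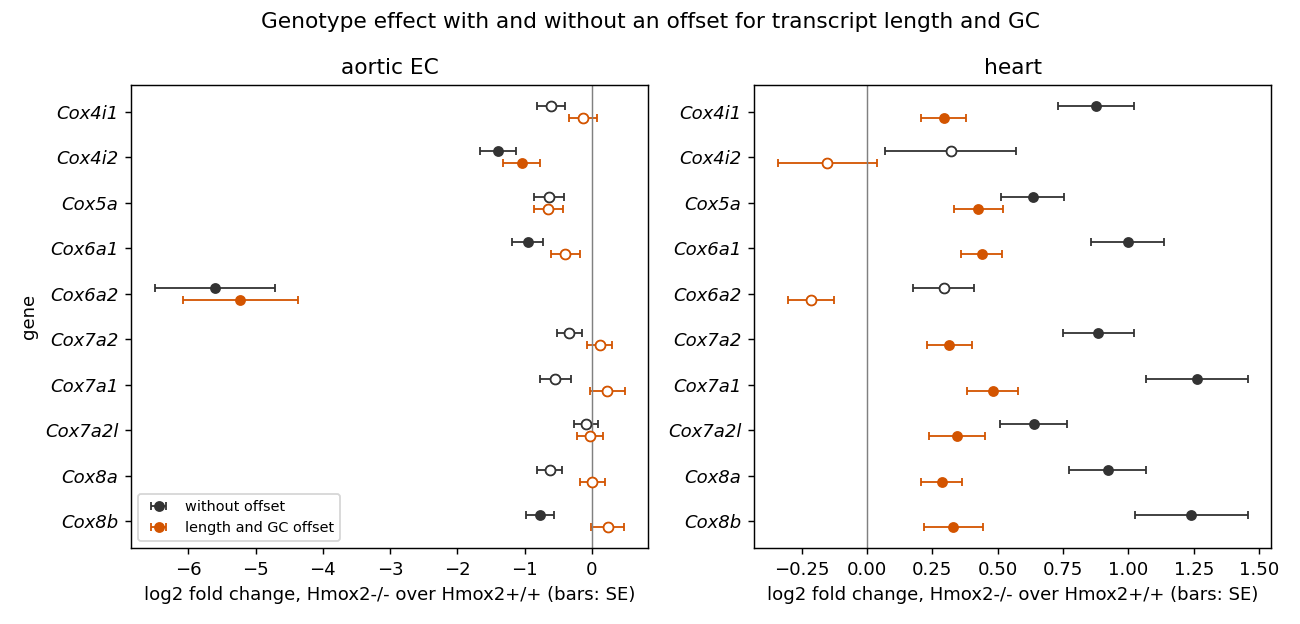
Log2 fold change of Hmox2-/- over Hmox2+/+ (x axis, bars are SE) of the 10 genes (y axis) in ECs (left) and hearts (right), from edgeR without an offset (dark) and with an offset for transcript length and GC content (orange). Filled points have an adjusted p of 0.05 or less. In hearts 8 genes stay above 0 at a smaller size, and in ECs *Cox6a2* and *Cox4i2* alone are filled in both fits.

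Within pairs, the ratios moved in hearts as the single genes did. *Cox6a2* held 94.9% to 96.1% of its pair in wildtype hearts and 92.4% to 93.2% in Hmox2-/- hearts, a log2 ratio 0.71 lower (p = 0.0286, exact permutation test, n = 4 and 3). *Cox4i2* held 0.393% to 0.467% and then 0.240%, 0.276% and 0.327%, a log2 ratio 0.62 lower (p = 0.0286, exact permutation test, n = 4 and 3). The *Cox7a1* ratio was 0.34 higher (p = 0.0286, exact permutation test, n = 4 and 3), with 80.142% in the lowest Hmox2-/- heart next to 80.134% in the highest Hmox2+/+ one. The *Cox8b* ratio was 0.26 higher with overlap (p = 0.114, exact permutation test, n = 4 and 3), and 0.10 higher without heart KO 1. As differences between the fold changes fitted with the length and GC offset, these were -0.65 for *Cox6a2*, -0.44 for *Cox4i2*, 0.17 for *Cox7a1* and 0.04 for *Cox8b*, with no test.

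In ECs, the same question gave the opposite direction and fewer calls. All 10 genes had a lower fitted level in Hmox2-/- ECs, and 4 were called (*Cox4i2*, *Cox6a1*, *Cox6a2* and *Cox8b*) by edgeR's quasi-likelihood test, where 18.1% of 15301 genes tested were called (8.06% lower and 10% higher). Of these, *Cox4i2* and *Cox6a2* were lower by a log2 fold change of 1 or more, as were 3.89% of all genes tested. The median log2 fold change of the 10 was -0.64, against -0.02 over all genes tested, and -0.08 with the length and GC offset. Values are CPM scaled by TMM within ECs.

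*Cox6a2* was 3.80, 16.3 and 5.50 CPM in Hmox2+/+ ECs and 0.319, 0.192 and 0 CPM in Hmox2-/- ECs, from 103, 487 and 178 counts against 9, 5 and 0. There was no overlap, as for 40.7% of all genes tested, and the fitted difference was -5.60 ± 0.90 (log2, SE; adjusted p = 0.00905). Each Hmox2-/- count was below the filter's minimum of 10, so the gene was kept through Hmox2+/+ ECs alone. Passing the filter in that way largely fixed its direction and its lack of overlap. The summed cardiomyocyte and skeletal muscle markers given above were also lower in Hmox2-/- ECs. Among Hmox2+/+ ECs the skeletal muscle sum did not follow the order of *Cox6a2*. *Cox4i2* was 3.07, 3.71 and 4.06 CPM against 1.18, 1.45 and 1.49 CPM, without overlap (log2 -1.39 ± 0.27 SE, adjusted p = 0.0164). Both of these remained called with the length and GC offset, at -5.23 and -1.04 (adjusted p = 0.00965 and 0.0383).

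*Cox6a1* was 627, 890 and 1046 CPM in Hmox2+/+ ECs and 371, 475 and 476 CPM in Hmox2-/- ECs, without overlap (log2 -0.96 ± 0.23 SE, adjusted p = 0.0292). *Cox8b* was 437, 592 and 742 CPM and 332, 336 and 370 CPM, without overlap (log2 -0.77 ± 0.21 SE, adjusted p = 0.0424). Neither was called with the offset, where *Cox6a1* was -0.40 (adjusted p = 0.226) and *Cox8b* changed sign to 0.24 (adjusted p = 0.525). *Cox8b* was also not called with length-scaled TPM counts (adjusted p = 0.0525). Among the 2232 genes tested in ECs with a length under 1000 bases, 12.4% were called lower and the median log2 fold change was -0.16, against 7.78% and 0.08 of genes of 4000 bases or more.

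The other 6 were not called in ECs. *Cox8a* (417 to 606 against 290 to 362 CPM, log2 -0.63, adjusted p = 0.0550) and *Cox4i1* (1003 to 1499 against 787 to 925 CPM, log2 -0.61, adjusted p = 0.0771) did not overlap between genotypes. *Cox5a*, *Cox7a1*, *Cox7a2* and *Cox7a2l* overlapped, with log2 fold changes of -0.64, -0.55, -0.34 and -0.09 and adjusted p = 0.0820, 0.135, 0.230 and 0.744. With the offset *Cox7a1*, *Cox7a2* and *Cox8a* changed sign, to 0.23, 0.12 and 0.01.

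Other cell type markers moved with genotype in ECs as well. By edgeR, 11 of 12 cardiomyocyte, 9 of 9 tested fast skeletal muscle, 4 of 8 smooth muscle, 3 of 8 adipocyte and 1 of 9 tested brown adipocyte markers were called lower in Hmox2-/- ECs, beside 8.06% of all genes tested, a share near that of the brown adipocyte markers. In the other direction 4 of 10 endothelial, 3 of 7 fibroblast and 4 of 7 macrophage markers were called higher, beside 10% of all genes tested. Of the endothelial markers 1 was called lower. Summed endothelial markers were 908 to 1744 TPM in Hmox2+/+ libraries and 1930 to 2122 TPM in Hmox2-/- ones. Their part in the members' levels was not tested.

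The number of calls in ECs rested on single libraries. It was 2 without EC WT 1, EC WT 2 or EC KO 1, 1 (*Cox6a2*) without EC KO 2 or EC KO 3, and 7 without EC WT 3. DESeq2 called 7, and 7 were called when ECs and hearts shared one edgeR fit. The share of all genes called in each of these fits is not given here, so a general change in calls is not told apart. Without both EC KO 2 and EC KO 3, the libraries low in *Ddx3y*, edgeR called 0 of the 10 in a fit in which EC KO 1 was assumed to vary like the Hmox2+/+ libraries. In that fit 4 had an unadjusted p of 0.05 or less, all 10 remained below 0, and 0.299% of the 16390 genes tested were called.

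Within pairs, EC ratios of *Cox7a1* and *Cox8b* overlapped between genotypes. The log2 ratio was 0.21 lower in Hmox2-/- ECs for *Cox7a1* over *Cox7a2* (p = 0.5), or -0.02 without EC KO 1, and 0.12 lower for *Cox8b* over *Cox8a* (p = 0.6, exact permutation tests, n = 3 and 3, smallest possible 0.1). Both were above 0 as differences between fold changes fitted with the offset, at 0.12 and 0.23. *Cox6a2* over *Cox6a1* was 4.53 lower on the log2 scale and *Cox4i2* over *Cox4i1* 0.76 lower, both without overlap and both at p = 0.1, the smallest that this exact permutation test allows. The size of 4.53 depends on the 0.1 TPM added, since *Cox6a2* was 0.707, 0.354 and 0 TPM in Hmox2-/- ECs.

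The difference between tissues in the genotype effect was tested itself, as a tissue by genotype term in edgeR. All 10 genes were called, all with the higher fold change in hearts, where 28.8% of all genes tested were called (16.2% in that direction and 12.6% in the other). The differences ran from 0.76 ± 0.23 (*Cox7a2l*, log2, SE; adjusted p = 0.0226) to 5.92 ± 0.76 (*Cox6a2*, adjusted p = 0.000219), and that of *Cox8b* was 2.05 ± 0.34. *Cox7a2l* was not called without EC WT 1 (0.56), heart KO 1 (0.64) or EC KO 3 (0.74). With the length and GC offset 4 of the 10 were called (*Cox4i2*, *Cox5a*, *Cox6a1* and *Cox6a2*), where 22.6% of all genes tested were called. The exact permutation test of the ratios, with genotypes permuted within each tissue, gave p = 0.05 for *Cox7a1* over *Cox7a2*, a genotype effect 0.54 higher in hearts on the log2 scale and 0.36 higher without EC KO 1. It gave p = 0.1 for *Cox6a2* (3.82), 0.124 for *Cox8b* (0.38) and 0.787 for *Cox4i2* (0.14) in the same exact permutation test. The size of 3.82 depends on the 0.1 TPM added, since *Cox6a2* was at most 0.707 TPM in Hmox2-/- ECs. As differences of fitted fold changes with the offset, the *Cox7a1* and *Cox8b* values were 0.08 and -0.06.

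The sum of a pair shows how much of a subunit's RNA there was whichever isoform made it. Per TPM of *Cox5a*, *Cox8a* and *Cox8b* together were 5.66 to 5.97 in Hmox2+/+ ECs, 4.64 to 6.55 in the Hmox2-/- ones, 1.31 to 1.58 in Hmox2+/+ hearts and 1.71 to 2.82 in those of Hmox2-/- mice. ECs lay above all hearts. *Cox7a1* and *Cox7a2* together were 2.01 to 2.26 in wildtype ECs and 1.74 to 2.39 in wildtype hearts, which overlapped. In Hmox2-/- mice they were 2.27 to 2.57 in ECs, above the wildtype ECs, and 2.56 to 3.66 in hearts, which overlapped those ECs. *Cox6a1* and *Cox6a2* together were 1.77 to 2.12 in Hmox2+/+ hearts and at most 1.60 in Hmox2-/- hearts, where *Cox5a* was higher and *Cox6a2* was not called. These sums are descriptions, with no test.

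The remaining genes of complex IV were counted from lists. Of 8 tested other nuclear subunits, 6 were called higher in Hmox2-/- hearts and none lower (median log2 0.55), beside 17.2% higher among all genes tested and 46.2% among those under 1000 bases. *Cox6b1*, an outer subunit facing the intermembrane space, was 0.89 ± 0.13 higher (log2, SE; adjusted p = 0.000924). In ECs 2 of the 8 were called, both lower (median -0.51), beside 8.06% lower among all genes tested. These were *Cox5b*, the zinc-binding subunit, at -1.02 ± 0.21 (adjusted p = 0.0202), and *Ndufa4*, a subunit once assigned to complex I, at -0.73 ± 0.20 (adjusted p = 0.0418).

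The subunits encoded in mitochondrial DNA went the other way in hearts. *mt-Co1*, *mt-Co2* and *mt-Co3*, the core subunits, were all called lower in Hmox2-/- hearts, at -1.08 ± 0.15, -0.94 ± 0.13 and -0.30 ± 0.10 (log2, SE; adjusted p = 0.000574, 0.000785 and 0.0327). Of all genes tested 16.2% were called lower. The share of counts from all mitochondrially encoded genes was also lower, at 22.5% to 27.2% in Hmox2-/- and 37.6% to 44.3% in Hmox2+/+ hearts. In ECs none of the 3 was called by edgeR (log2 0.12, 0.01 and 0.47, adjusted p from 0.474 to 0.988). None had an unadjusted p of 0.05 or less, and DESeq2 called 0 of the 3. With mitochondrially encoded genes left out of the fits, a setting chosen after the data were seen, no call and no direction of the 10 members changed.

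Of 26 tested assembly factors, 17 were called higher and 1 lower in Hmox2-/- hearts (median 0.42), and 6 were called lower and none higher in ECs (median -0.39). All genes tested had 17.2% called higher and 16.2% lower in hearts, and 8.06% called lower in ECs. Among genes under 1000 bases 46.2% were called higher in hearts, with a median of 0.42. Transcript lengths of the genes in these lists are not given here. *Sco2*, a copper chaperone of COX2, was 1.11 ± 0.17 higher in hearts (log2, SE; adjusted p = 0.00119). *Cox18*, which inserts COX2 into the membrane, was lower in both tissues, at -0.96 ± 0.16 in hearts and -1.37 ± 0.14 in ECs (log2, SE; adjusted p = 0.00208 and 0.00240). Among 7 other paired mitochondrial isoforms, 6 were called higher in Hmox2-/- hearts and 3 lower in ECs. In hearts *Slc25a5*, the ubiquitous ADP/ATP carrier, was 1.14 ± 0.11 higher (log2, SE; adjusted p = 3.83e-05). In ECs *Ckmt2*, the muscle form of mitochondrial creatine kinase, was 1.51 to 10.5 CPM in Hmox2+/+ and at most 0.0383 CPM in Hmox2-/- libraries, like *Cox6a2* low where cardiomyocyte markers were low. Its ubiquitous partner *Ckmt1* was lower as well, at 0.738 to 1.80 CPM and at most 0.115 CPM, so the drop was not limited to the muscle form. Both passed the filter in ECs through Hmox2+/+ libraries alone.

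Genes with the most similar pattern were ranked by Pearson's r of log2(CPM + 0.5) across libraries of one tissue, as a description. Over 7 hearts, the nearest to *Cox7a1* were *Uqcrh*, a complex III subunit (r = 0.999), *Bccip* and *Ctsb* (each 0.998), and the nearest to *Cox8b* were *Rpl9* (0.999), *Rpl19* and *Ndufv3*, a ribosomal protein and a complex I subunit (each 0.998). For *Cox6a2* they were *Tspo* (0.997), *Smim11* (0.992) and *Pgd* (0.988), and for *Cox4i2* *Pstpip1* (0.987), *Churc1* (0.977) and *Il17rc* (0.969). Over 6 EC libraries, *Atp5mc2*, an ATP synthase subunit (0.999), *Palmd* (0.997) and *Cycs*, cytochrome c (0.991), were nearest to *Cox7a1*. *Endog* (0.999), *Uqcc1* and *S100a1* (each 0.998) were nearest to *Cox8b*. *Pabir1* (0.999), *Aspscr1* (0.998) and *Rpl3l*, a ribosomal protein of striated muscle (0.997), were nearest to *Cox6a2*, and *Rpl28-ps1* (0.997), *Dpysl5* (0.997) and *Ano1* (0.995) to *Cox4i2*. The libraries share depth and genotype differences, which such an r includes.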

How the data were processed

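RNA was sequenced by the authors from oligo-dT libraries (100 base paired-end reads). The authors pseudoaligned reads with Kallisto 0.44.0 (version also listed in the submitters' processing notes) in default mode, which does not use the strand, and named GENCODE M32 on GRCm39, while the processing notes list mm10. The deposited estimated counts and TPM values are per transcript and not normalized between libraries. Here 115140 of 118489 transcripts (97.2%) were matched to GENCODE M39 by identifier without version. Values were summed per gene, and estimated counts were rounded. Unmatched transcripts held 0.755% to 1.01% of counts.

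Genes kept by filterByExpr (minimum count 10) were scaled by TMM and tested with edgeR 4.0.16 in R 4.3.3 (quasi-likelihood, Benjamini-Hochberg over all genes), within tissue for genotype and over all 13 libraries for tissue and interaction. EdgeR's common biological variation was 0.241 (ECs) and 0.149 (hearts). SE is the log2 fold change over the root of F. On simulated counts, edgeR called 198 (ECs) and 200 (hearts) of 200 genes simulated with a 2 log2 change. Ratios used TPM plus 0.1. The length and GC offset is a spline (5 df each) per library. Near-identical copies shared at least 20% of 31-base words, with M39 transcripts cut to the deposited length.

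The members and lists were chosen with earlier results of these data known. All members are named, *Hmox2* once, from each pathway list up to 3 genes with the smallest adjusted p, from marker lists the 3 highest, and the 3 genes most like each restricted isoform. *Ddx3y* was added after its values were seen. Replicates are the numbered samples of the labels, which do not say that each is a separate mouse, so p-values measure the spread between these samples. EC and heart samples are described as matched pairs, which the labels do not identify, and same-numbered libraries did not deviate together in all pairs (r from -0.067 to 0.264). Alternatives were DESeq2 1.42.0, upper-quartile scaling, no filter, length-scaled TPM counts, summed copies, the offset, the replicate block, all libraries in 1 fit, other pseudocounts, and leaving out each library. Added after seeing the data were leaving out EC KO 2 and 3 together, leaving out mitochondrially encoded genes, and ratios from the offset fit. Figures used matplotlib 3.10.9.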

Additional observations from a re-analysis of the deposited data

Results flagged for a closer look

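The genotype effect of all 10 genes differed between tissues by the tissue by genotype term of edgeR, with the higher fold change in hearts. The log2 difference was 1.53 for *Cox4i1*, 1.74 for *Cox4i2*, 1.31 for *Cox5a*, 1.99 for *Cox6a1*, 5.92 for *Cox6a2*, 1.85 for *Cox7a1*, 1.26 for *Cox7a2*, 0.76 for *Cox7a2l*, 1.59 for *Cox8a* and 2.05 for *Cox8b*. Of all genes tested 28.8% were called, 16.2% in that direction. With the length and GC offset *Cox4i2*, *Cox5a*, *Cox6a1* and *Cox6a2* alone stayed called, where 22.6% of all genes tested were called. The ratio of *Cox7a1* to *Cox7a2* also differed, by 0.54 on the log2 scale, at the threshold itself (p = 0.05, exact permutation test). No value of the 10 genes or 4 ratios in the 4 Hmox2+/+ hearts stood far from the others by Dixon's test.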

How the results depend on the processing

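Of the counts of called genes, that in ECs (4) and that for tissue by genotype (10) changed by over 1.5 times. The EC count was 2 with the length and GC offset, 7 with DESeq2 or with all libraries in 1 fit, 0 without both EC KO 2 and EC KO 3, and 1 to 7 without single libraries. The tissue by genotype count was 4 with the offset. With the offset 17.4% of all genes tested were called in ECs and 22.6% for tissue by genotype. The other counts were 8 to 9 (heart genotype), 7 to 8 (Hmox2+/+ tissues), 10 (Hmox2-/- tissues) and 9 to 10 (tissue by genotype) without single libraries. The offset reversed, in ECs, *Cox8b* (0.24), *Cox7a1* (0.23), *Cox7a2* (0.12) and *Cox8a* (0.0083), in hearts *Cox4i2* (-0.15) and *Cox6a2* (-0.21), and between Hmox2+/+ tissues *Cox7a2* (0.42). *Cox7a2l* in ECs was 0.12 without EC WT 1, and *Cox4i2* in hearts -0.0327 without heart KO 1 (up to 0.57 without the others). No other of the 10 genes reversed under any setting run. Over all comparisons and settings other than single leave-outs, a member's call was lost 18 times and gained 12 times, and over single leave-outs it was lost 15 times and gained 5 times. The cause was not tested. For the other settings of this section, the share of all genes called in the same fit is not given. A general change in calls is therefore not told apart.

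Of the ratios, *Cox7a1* over *Cox7a2* in hearts had p = 0.0571 from estimated counts (0.34, exact permutation test), and its tissue by genotype difference p = 0.0514 with a pseudocount of 0.01 (0.54, exact permutation test). *Cox4i2* over *Cox4i1*, tissue by genotype, was -0.15 with a pseudocount of 1. Leaving out single libraries gave -0.0513 to 0.30 for it, and -0.21 to 0.0248 for *Cox8b* over *Cox8a* in ECs. From the offset fit, tissue by genotype differences were 0.41 (*Cox4i2*), 0.0839 (*Cox7a1*) and -0.0635 (*Cox8b*), those between Hmox2-/- tissues 0.91 (*Cox4i2*), 1.37 (*Cox7a1*) and 1.89 (*Cox8b*), those in ECs 0.12 (*Cox7a1*) and 0.23 (*Cox8b*), and that of *Cox8b* in hearts 0.0437. Without EC KO 2 and EC KO 3, *Cox6a2* over *Cox6a1* was 14.37 between Hmox2-/- tissues and 2.75 for tissue by genotype, and *Cox7a1* over *Cox7a2* was -0.58 in ECs, 2.05 between tissues and 0.91 for tissue by genotype. The size of each *Cox6a2* ratio difference that includes Hmox2-/- ECs depends on the pseudocount.

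With the replicate block the counts were 4 in ECs (*Cox8b* lost, adjusted p = 0.0535, and *Cox8a* gained, adjusted p = 0.0468, in edgeR), 8 in hearts, 8 between Hmox2+/+ tissues (*Cox7a2l* gained), 10 between Hmox2-/- tissues and 10 for tissue by genotype. Depth limits *Cox4i2* (28 counts in heart WT 1) and *Cox6a2* in Hmox2-/- ECs.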
